A study of Mus musculus with 28 samples.

Results

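The widest stretches of H3K9me3 in mouse embryonic stem cells (mESCs) were examined, defined as autosomal domains of at least 25 kb in the WT list from chromatin immunoprecipitation followed by sequencing (ChIP-seq). These 1149 domains were 2.27% of the 50521 autosomal WT domains by number and 12.3% by length, and they covered 45.9 Mb, or 1.92% of the sequenced autosomes. Of the 53745 WT domains in all, those on other chromosomes were left out. The domains were selected on their width in WT, so width, WT coverage and the WT score describe the choice and are not findings. The groups compared were WT and Spen KO cells of the HATX line, a haploid mESC line on a mixed genomic background grown in serum with LIF. Both genotypes carry an Xist transgene that doxycycline switches on, and the labels of these libraries name no doxycycline treatment. The Spen KO cells were clone 2 alone, in which Spen is deleted, so the deletion and the history of 1 clone cannot be told apart. Antibodies against H3K9me3, H3K4me3, H3K27Ac and Oct4 were each used on 2 libraries per genotype, and the series also holds 12 input libraries. Each histone mark has 1 list per genotype made from both libraries, whereas Oct4 has 1 list per library. Differences between genotypes in a histone mark therefore have no replicate test, and since read numbers were not used here, the depth of each library is unknown.

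H3K9me3 is the mark of constitutive heterochromatin. It is placed by methyltransferases such as Setdb1 and the Suv39h enzymes, is bound by HP1 proteins, and in mESCs lies over endogenous retroviruses, satellite repeats and clusters of duplicated genes. H3K4me3 marks promoters and H3K27Ac marks active promoters and enhancers, and Oct4 is a transcription factor of the pluripotent state. Spen is an RNA-binding corepressor that acts with Xist and histone deacetylases.

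The identity of the cells was checked first. H3K27Ac peaks lay within 1000 bp of the transcription start site (TSS) for 9 of 10 pluripotency genes in both genotypes, with Esrrb as the exception, and for 0 of 10 genes of other cell types. H3K4me3 was at the same 9 pluripotency genes and at 8 (WT) and 7 (Spen KO) of the 10 others.

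The sequences that recur inside the wide domains are shown first. They are taken from the mm9 build (NCBIM37). SNORD115 and SNORD116 are C/D box small nucleolar RNAs that lie in long tandem arrays in the imprinted region between Snrpn and Ube3a on chromosome 7. Of 137 annotated SNORD115 copies, 136 lay in wide domains, as did 27 of 27 SNORD116 copies, all on chromosome 7. The 136 SNORD115 copies had 56 distinct sequences. The most frequent was shared by 33 copies, the second by 23 copies, and these differ at 1 base (G31C, counted from the 5′ end). Of the 27 SNORD116 copies, 18 shared 1 sequence. The copies printed here are exons of the snoRNA genes, on the minus strand, at chr7:66648931-66649009, chr7:66745931-66746009 and chr7:66933879-66933972. Capitals mark TGATGA, found in 136 of 136 SNORD115 and 27 of 27 SNORD116 copies, and the CTGA within 6 bases of the 3′ end, found in 133 of 136 SNORD115 and 27 of 27 SNORD116 copies. Of all autosomal windows of 79 bases, 4.78% hold TGATGA on either strand.
SNORD115, most frequent: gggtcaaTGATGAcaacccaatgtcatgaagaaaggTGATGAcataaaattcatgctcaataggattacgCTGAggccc
SNORD115, second: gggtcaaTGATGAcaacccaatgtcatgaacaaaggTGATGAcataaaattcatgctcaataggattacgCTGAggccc
SNORD116, most frequent: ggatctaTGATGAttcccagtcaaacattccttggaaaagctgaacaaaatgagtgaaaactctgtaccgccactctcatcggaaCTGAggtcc

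A second recurring word was the DNA that encodes TGEKP, the linker between neighbouring C2H2 zinc fingers. It was searched as ACNGGNGANAANCC on both strands. Wide domains held 893 matches, or 19.4 per Mb, against 7.32 per Mb in the other autosomal WT domains and 3.74 per Mb over the autosomes. Matches were in 137 wide domains (11.9%), and 53 of these held 5 or more and together had 85.4% of the matches, up to 34 in 1 domain. Of all autosomal windows of 40000 bases, close to the mean width of a wide domain, 6.96% held a match. A stretch of the coding exon of Zfp600, a zinc finger gene of chromosome 4 with 13 matches on its strand, is shown from chr4:146163858-146163971 on the plus strand, with the match in capitals.
Zfp600: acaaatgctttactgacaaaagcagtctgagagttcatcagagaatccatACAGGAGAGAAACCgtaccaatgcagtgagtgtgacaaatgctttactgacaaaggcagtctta

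The last sequence set is from the start of chromosome 9 and from sites with H3K27Ac in Spen KO alone, to which the results on peaks return. The domain at chr9:3000001-3098400 held 61 Oct4 peaks of 1 library. The 200 bases at the centre of the strongest of these, chr9:3024421-3024620, lie in an exon of the predicted gene Gm10718, and capitals mark TTCTCATTTT, the word of 10 letters in this window with most copies in the domain (467). It occurs in 0.237% of autosomal windows of 200 bases on either strand. The other 3 are the centres of the strongest Spen KO-only H3K27Ac peaks in wide domains, at chr5:110338703-110338902, chr3:22192703-22192902 and chr3:83674101-83674300, all outside annotated genes, with CG dinucleotides in capitals. A CG is in 70.0% of autosomal windows of 200 bases.
Chromosome 9: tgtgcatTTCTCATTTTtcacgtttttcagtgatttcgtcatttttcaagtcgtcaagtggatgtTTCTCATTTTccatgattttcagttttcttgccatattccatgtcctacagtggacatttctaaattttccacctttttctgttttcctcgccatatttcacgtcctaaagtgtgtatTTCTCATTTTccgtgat
Chromosome 5: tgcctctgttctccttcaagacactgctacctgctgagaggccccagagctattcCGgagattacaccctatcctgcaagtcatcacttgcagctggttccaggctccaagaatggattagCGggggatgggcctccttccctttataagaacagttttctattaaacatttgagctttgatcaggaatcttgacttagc
Chromosome 3, first: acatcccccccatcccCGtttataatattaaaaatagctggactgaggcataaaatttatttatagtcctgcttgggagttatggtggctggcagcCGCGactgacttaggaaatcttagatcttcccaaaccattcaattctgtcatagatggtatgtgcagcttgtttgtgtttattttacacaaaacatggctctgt
Chromosome 3, second: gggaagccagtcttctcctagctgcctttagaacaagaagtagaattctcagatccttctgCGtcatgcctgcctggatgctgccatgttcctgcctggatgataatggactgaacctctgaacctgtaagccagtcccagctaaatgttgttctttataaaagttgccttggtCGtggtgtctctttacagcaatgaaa

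The domains were 25 to 396.2 kb wide, with a median of 32.8 kb. Among them, 952 were under 50 kb, 169 between 50 and 100 kb and 28 wider still. Their scores, whose values fit a log2 enrichment over input multiplied by 100, ran from 5.31 to 300.2 with a median of 211, while the other WT domains had a median of 145. Score and width were nearly unrelated within the wide domains (Spearman rho −0.02 over 1149 domains). At the threshold itself, the 27 domains of exactly 25000 bp had a median score of 216 and 85.2% of their bases in the Spen KO list, and the 28 domains of 24800 bp had 218 and 87.9%.

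Wide domains were spread unevenly over the chromosomes. Chromosome 7 held 214 of them (18.6%) and 10.3 Mb, which is 7.24% of its sequence, whereas the other autosomes had between 0.604% (chromosome 11) and 3.51% (chromosome 12). Of the domains on chromosome 7, 84 with 5.04 Mb lay between 20 and 36 Mb, an interval chosen after the positions were seen. They held 87 protein-coding TSSs, many of the Vmn1r family of pheromone receptors.

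To ask what wide H3K9me3 domains contain, genes were counted by their TSS. Wide domains held 311 protein-coding TSSs, 6.77 per Mb (exact Poisson 95% interval 6.04 to 7.57, counting error only), against 2.95 per Mb in the other WT domains and 8.95 per Mb over the autosomes. Pseudogenes reached 4.22 per Mb, against 2.14 and 1.69, and snoRNAs 3.75 per Mb, against 0.453 and 0.609, with 136 SNORD115 and 27 SNORD116 copies among the 172 snoRNAs. Long intergenic RNA genes were at 0.240 per Mb, against 0.0795 in other WT domains and 0.515 over the autosomes. Of the wide domains, 948 (82.5%) had no protein-coding TSS and 639 (55.6%) touched no annotated gene. At 6.77 TSSs per Mb many stretches of such width hold none however genes are spread. The share for other stretches of this width was not counted, so these values do not show that genes were concentrated. Of the 311 protein-coding genes, 143 (46.0%) had predicted names of the Gm type, which 8.67% of all 21418 autosomal protein-coding genes have.

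Much of the sequence in wide domains occurs elsewhere in the genome. Of all words of 31 bases, 58.0% in wide domains had at least 2 copies in mm9, against 39.5% in the other WT domains and 15.9% over the autosomes. With at least 10 copies, the shares were 35.1%, 30.5% and 10.8%. Domains ranged from 0.469% to 100% of words with at least 2 copies, with a median of 51.7%, and 605 of them (52.7%) were at 50% or more. GC content was 42.5%, beside 42.8% in other WT domains and 41.9% over the autosomes, so base composition hardly set them apart. Per the methods, uniquely mapped read pairs were kept for the histone marks, and which caller then made the domains is not given in the sources used here. What copies do to the calls was not tested.

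Gene families were listed by gene symbol, which leaves genes with predicted Gm names out of each family. Families were then compared by the share of members whose body overlapped a wide domain. Over all 21418 autosomal protein-coding genes this share was 2.31%. The families with the largest shares were Mup, the major urinary proteins that carry pheromones, with 11 of 21 genes (52.4%, Wilson 95% interval 32.4 to 71.7), and Ugt, the glucuronosyltransferases, with 9 of 21 (42.9%). The 9 Ugt genes are first exons of the Ugt1a locus that share their last exons and touch 1 domain. Speer genes, expressed in the testis, followed with 3 of 9. Vomeronasal receptors had 50 of 327 (15.3%, 11.8 to 19.6), Serpin protease inhibitors 9 of 59 (15.3%), Cyp enzymes 14 of 100 (14%), Nlrp genes 4 of 18 and Mrgpr receptors 3 of 20. Counted by TSS, the share over all genes was 1.45%. Mup then had 9 genes, Speer 3, vomeronasal receptors 45 and Serpin 8. Cyp had 5, Mrgpr 2, Ugt 1 and Nlrp 0, so the Nlrp share and most of the Ugt share rest on gene bodies without the TSS. Members of a family lie side by side and share domains, so they are not independent, and the intervals cover counting error alone.

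Other families stayed near or below the share over all genes. Olfactory receptors, the largest mouse gene family, had 9 of 1106 (0.814%), the zinc finger list 6 of 426 (1.41%, 0.647 to 3.04) and Slc transporters 8 of 343 (2.33%). No member of the protocadherin (34), histone (67), Krtap (46), Tas2r (35), Skint (11), Abc (48) or germline (17) lists overlapped a wide domain. Defensins, Klr and Prl each had 1, Sirpb and Scgb had none of 3 and 4, and Grb10 was the single imprinted gene among 28. The 6 genes of the zinc finger list, transcription factors or repressors by their class, were Zfp125, Zfp160, Zfp600, Zfp808, Zfp932 and Zfp936. The 6 domains that overlapped them held 77 of the 893 linker matches, and 22 of the 53 domains with 5 or more matches overlapped any protein-coding gene. The zinc finger list leaves out Gm genes such as Gm13235, Gm13247 and Gm13145, whose domains held 15, 10 and 18 linker matches. The share of all genes that encode zinc fingers may therefore be higher and was not counted.

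**Figure D1:**
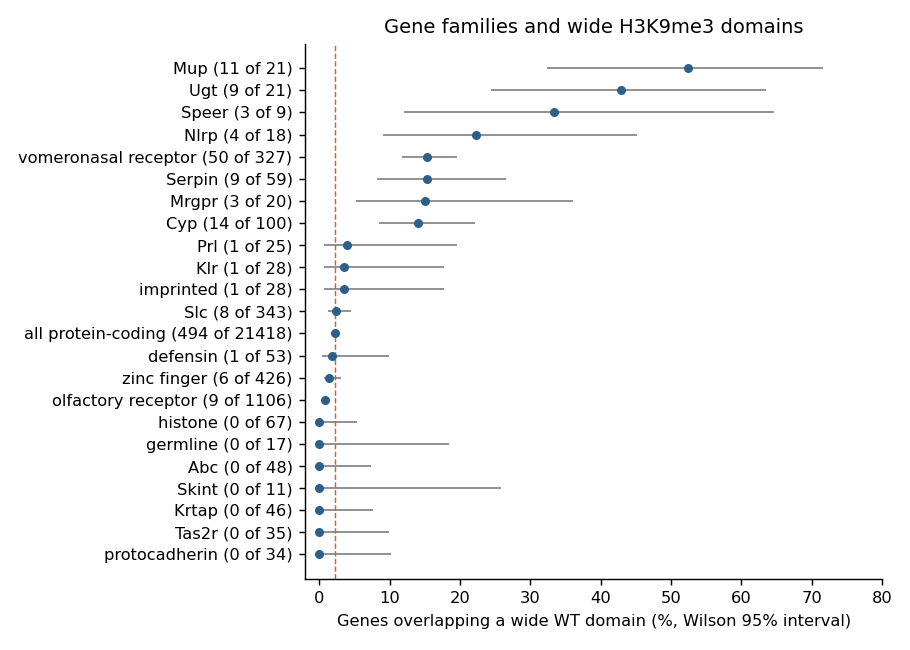
Share of the members of each gene family whose gene body overlaps a wide WT domain (x axis, percent; points with Wilson 95% intervals; the number of genes in brackets), for lists of at least 9 genes. The dashed line is the 2.31% of all protein-coding genes; Mup, Ugt, Speer and Nlrp lie farthest to the right and olfactory receptors at 0.814%.

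The 8 widest domains mostly hold 1 duplicated family each. The widest, chr1:84947401-85343600 (396.2 kb), contains C130026I21Rik and A530032D15Rik, and 89.8% of its words occur at least 2 times in the genome. The next, chr7:23051001-23386000 (335 kb), holds Vmn1r148, Vmn1r149, Vmn1r151 and Vmn1r152 with 99.6% such words. The third, chr7:66653801-66875600 (221.8 kb), holds 111 snoRNA copies and no protein-coding TSS. Vmn1r129 and Vmn1r130 lie in chr7:22140001-22361600, and Vmn1r100, Vmn1r101 and Vmn1r157 to Vmn1r160 in 2 further domains of chromosome 7. The fifth, chr12:104944801-105163400 (218.6 kb), holds Serpina1a, Serpina1b, Serpina1c and Serpina1d, copies of the alpha-1 antitrypsin gene. The eighth, chr7:34270601-34435800, contains the predicted gene Gm4695 as its single protein-coding TSS, beside 6 pseudogene TSSs.

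Whether these domains persisted without Spen was asked by overlap with the Spen KO list. Spen KO cells kept H3K9me3 over most of the bases. In total 87.9% of the bases of wide domains (40.3 of 45.9 Mb) lay in a Spen KO domain, against 71.7% for the other autosomal WT domains. Every wide domain kept some coverage, from 17.2% to 100%, with a median of 90.3% and quartiles of 81.4% and 95.8%. There were 78 domains covered in full and 589 (51.3%) covered to at least 90%. By contrast, 24 wide domains (2.09%, Wilson 95% interval 1.41 to 3.09) were covered by less than 50%, whereas this held for 22.6% of all autosomal WT domains. This cut is relative to width. The median width was 32.8 kb for wide domains and 5.4 kb for the others, so the same uncovered length is a larger share of a narrow domain. The Spen KO list is longer, with 65419 autosomal domains, and when it was reduced by score to the length of the WT list the share of wide domains under 50% was 5.31%. A fully uncovered domain was not found among the wide ones, and 6217 of the other domains (12.6%) had no base in the Spen KO list.

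Coverage increased with width over the whole range of domains. It was 58.2% below 2.5 kb, 61.1% from 2.5 to 5 kb, 69.9% from 5 to 10 kb and 80.2% from 10 to 25 kb, and then 86.3%, 90.03% and 93.4% in the 3 classes of wide domains. The wide domains thus continued a trend of the narrower ones. A shift of the same length at the edges lowers the share more in a narrow domain, and its part in the trend was not tested. The reverse comparison gave the same order, since wide Spen KO domains were covered by the WT list to 94.2%, 96.7% and 99.7%. Scores differ with width too. Other WT domains within the middle 50% of the scores of wide domains (9961 domains) were covered to 78.7% and wide domains in the same range (575) to 88.7%. Over 4 equal classes of rising score, coverage of wide domains was 85.3%, 88.0%, 89.4% and 88.9%. Spearman rho over the 1149 domains, which share both lists, was 0.17 between score and coverage, 0.11 between width and coverage and 0.02 between copied words and coverage.

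**Figure D2:**
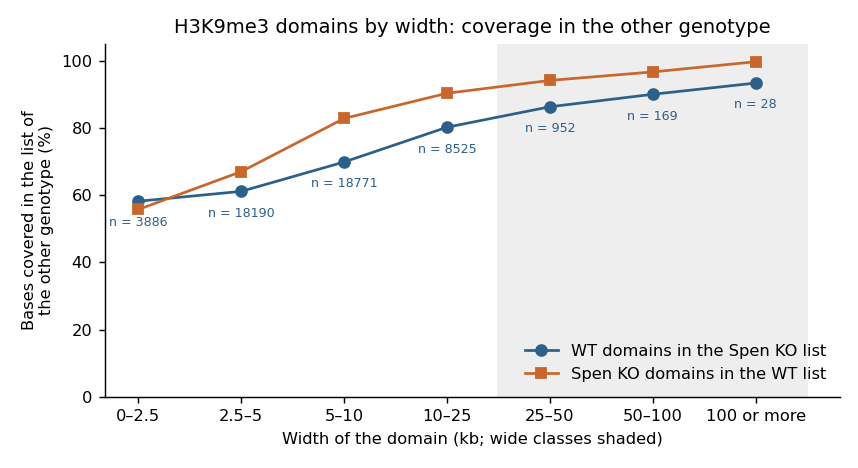
Percent of bases covered in the list of the other genotype (y axis) by width of the domain (x axis, kb), for WT domains in the Spen KO list (circles, with the number of WT domains) and Spen KO domains in the WT list (squares). Wide classes are shaded; WT coverage rises from 58.2% to 93.4%.

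The number of Spen KO domains per wide WT domain was counted next. Since the domains were chosen for being unbroken over 25 kb in WT, more breaks in Spen KO than in WT are partly set by the choice. A wide WT domain was touched by a median of 2 Spen KO domains, and 813 (70.8%, Wilson 95% interval 68.1 to 73.3) by 2 or more, against 13.3% of all autosomal WT domains. The number ranged from 1 in 336 domains to 10 in 2 domains, and 86 domains (7.48%) had at least 5. A wider domain has more room for gaps, and the median was 2, 3 and 5 in the 3 width classes. The 1593 gaps between Spen KO domains had a median length of 1000 bp, 52.2% were no longer than that, and the longest was 23800 bp. When Spen KO domains at most 1000 bp apart were joined, the median number fell to 1. In the mirror comparison, wide Spen KO domains were touched by a median of 1 WT domain, and 26.7% by 2 or more. Spen KO cells had 703 wide domains of their own with 25.9 Mb, and 80.8% of these touched a wide WT domain, while 46.5% of wide WT domains touched a wide Spen KO domain.

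The uncovered 5.58 Mb were split between the edges of the domains (48.2%) and gaps inside them (51.8%). With each domain divided into 10 equal bins, in the outermost bins Spen KO coverage was 74.0% and 72.3%, and between 89.0% and 92.8% in the inner ones. Just outside, within 2 kb of an edge, the Spen KO list covered 24.3% and 24.5% and the WT list 14.7% and 14.03%, a WT value that the choice of a domain's ends keeps low. From 4 to 10 kb away the Spen KO list covered 37.6% to 40.2% and the WT list 43.8% to 46.5%. A Spen KO domain reached past at least 1 edge for 575 wide domains (50.0%).

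**Figure D3:**
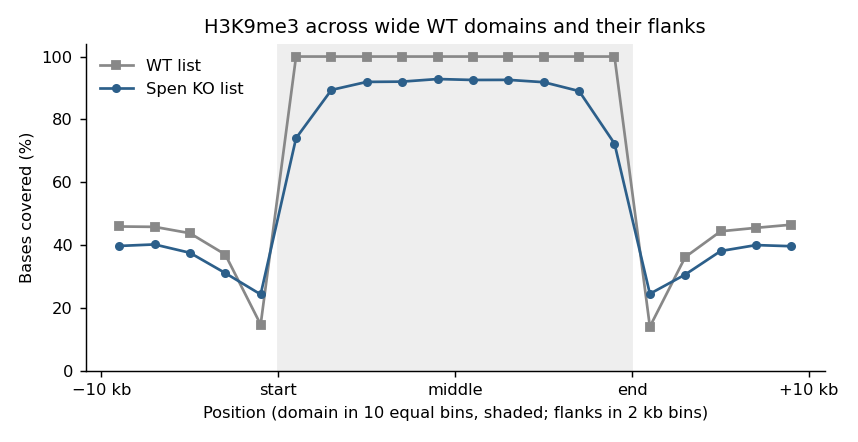
Percent of bases in the WT and Spen KO H3K9me3 lists (y axis) across wide WT domains scaled to 10 equal bins (shaded) and in 2 kb bins of their flanks (x axis). WT is 100% inside by construction; Spen KO is 72.3% to 74.0% in the outermost bins and near 92% in the middle.

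Coverage in Spen KO differed between chromosomes. On chromosomes 4, 10, 12, 16 and 17 it was 79.9%, 81.3%, 82.5%, 76.2% and 81.9% of the bases of wide domains, and on the other autosomes between 87.2% (chromosome 3) and 96.3% (chromosome 19). The other WT domains followed the same split, with 58.8% on those 5 chromosomes and 75.7% elsewhere. The 5 chromosomes held 290 wide domains and 17 of the 24 with less than 50% coverage. Without them, 90.4% of bases were covered and 0.815% of wide domains were covered by less than 50%. These chromosomes were singled out with earlier results of the same lists known, and the part of copy number or of the clone in this was not tested.

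**Figure D4:**
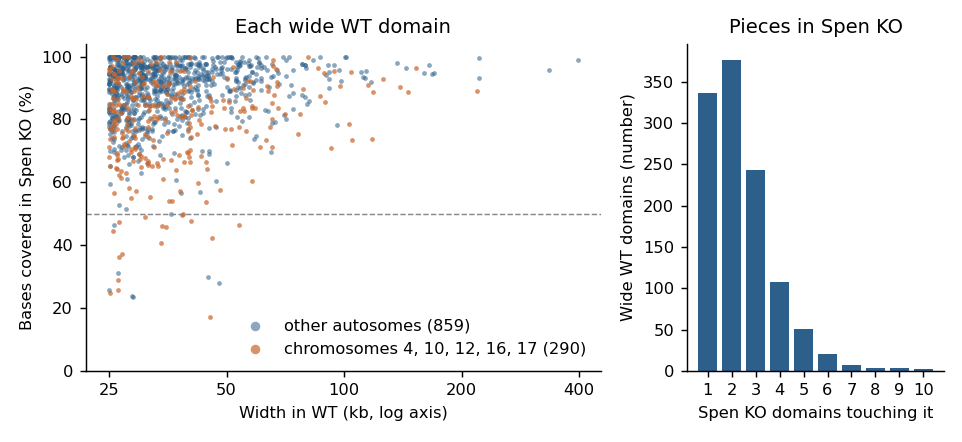
Left, each of the 1149 wide WT domains by width (x axis, kb, log axis) and percent of bases in the Spen KO list (y axis), with domains of 5 chromosomes in orange and the dashed line at 50%. Right, the number of wide domains (y axis) by how many Spen KO domains touch them (x axis); 2 is the most frequent number, in 377 domains.

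Coverage differed between the gene arrays. The 4 domains with SNORD115 or SNORD116 (0.374 Mb) were covered to 98.1%, between 93.8% and 99.5%, and held none of the H3K4me3 or H3K27Ac peaks of either genotype. The 33 domains with vomeronasal receptors were covered to 88.4% in a median of 3 Spen KO domains, those with Cyp genes (16 domains) to 91.5%, and those with Serpin genes (6) to 86.8%. The 10 domains with Mup genes, all on chromosome 4, were covered to 82.7% in a median of 5 pieces, near the 79.9% of that chromosome. Over all wide domains the value was 87.9%, so the snoRNA arrays lay above it and the Mup domains below. For the snoRNA arrays, which share 1 region, the value was 90.2% over the wide domains of chromosome 7. It was 93.4% over WT domains of 100 kb or more. The 8 widest domains had between 89.0% and 99.5% of their bases covered, with 10 pieces at Serpina1 and at Vmn1r148 and 2 at the SNORD115 array. The domain of the Ugt1a locus, chr1:90106801-90207400, was covered in full by 1 Spen KO domain although its WT score was 65.1. This domain also holds Hjurp, a chaperone of the centromeric histone CENP-A, and Trpm8, a cold-sensing channel. The other 3 widest among those covered in full were chr7:34572201-34659000, chr4:73264801-73345800 with Gm11236, Gm11237, Gm11238 and Gm11239, and chr1:87343801-87416000.

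The 4 least covered domains were different in content. At chr4:60262201-60307600, 17.2% of bases were covered, with 90.6% of words in at least 2 copies, and its 1 H3K4me3 peak was found in WT alone. The domain at chr9:27775601-27804400 (23.6%) lies in Opcml, which encodes a cell adhesion protein, and that at chr4:127848601-127873800 (24.6%) in Csmd2. The domain at chr11:11905001-11933600 (23.8%) lies within the imprinted gene Grb10 (minus strand, chr11:11830511-11938686), which encodes an adaptor that restrains growth signalling. Only 0.676% of its words have another copy. Spen KO H3K9me3 extended over its left end, chr11:11904601-11911800, and inside the uncovered bases an H3K4me3 peak was called in Spen KO alone at chr11:11925344-11926934, over an Oct4 peak of WT replicate 2 at chr11:11925968-11926497. Among the 24 domains with less than 50% coverage, 11 overlapped a protein-coding gene, 0 held an H3K27Ac peak in either genotype, and 3 had an H3K4me3 peak in WT. Of all 1149 wide domains, 364 (31.7%) overlapped a protein-coding gene, 49 (4.26%) held WT H3K27Ac and 143 (12.4%) WT H3K4me3. These differences were not tested. Their median score was 189, beside 211 for the rest.

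Active marks inside the wide domains were sparse. H3K4me3 had 178 WT peak midpoints, or 3.88 per Mb (exact Poisson 95% interval 3.33 to 4.49), against 7.59 per Mb in other WT domains and 14.1 per Mb over the autosomes. H3K27Ac had 87, or 1.89 per Mb (1.52 to 2.34), against 2.36 and 5.74. In Spen KO there were 197 H3K4me3 midpoints (4.29 per Mb) and 95 H3K27Ac midpoints (2.07 per Mb), and over the autosomes 12.5 and 4.85 per Mb. Thus 143 wide domains had H3K4me3 in WT and 153 in Spen KO, and 49 and 48 had H3K27Ac. No peak of any active mark or Oct4 list had its midpoint in 919 wide domains (79.98%). The WT peaks inside were not weak ones of their lists, with a median score at the 48.4th percentile for WT H3K4me3 and the 56.8th for WT H3K27Ac. In Spen KO the median was at the 42.9th percentile for H3K4me3 and the 47.6th for H3K27Ac.

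**Figure D5:**
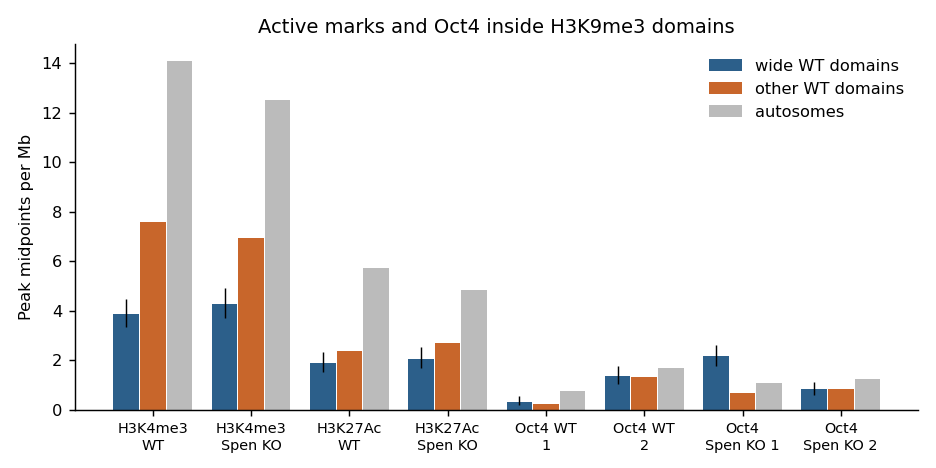
Peak midpoints per Mb (y axis) in wide WT domains (blue, with exact Poisson 95% intervals), other WT domains (orange) and the autosomes (grey) for the 4 histone lists and 4 Oct4 libraries (x axis). H3K4me3 and H3K27Ac are lowest in wide domains, and Oct4 Spen KO replicate 1 stands out at 2.16 per Mb.

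Promoters in the wide domains were mostly without active marks. Of the 311 protein-coding TSSs, 11 (3.54%, Wilson 95% interval 1.99 to 6.22) had a WT H3K4me3 peak within 1000 bp, against 64.0% of all autosomal protein-coding TSSs. For WT H3K27Ac it was 7 (2.25%), against 18.8%. TSSs in the other WT domains were also low, with 6.33% for WT H3K4me3 and 1.45% for WT H3K27Ac among 963, so low shares were not particular to the wide ones. In Spen KO the counts were 10 and 7. The promoters with both marks in both genotypes were those of Hjurp and Trpm8, whose start sites adjoin on opposite strands, Zfp600, and the predicted genes Gm13235, Gm13247 and Gm13145 of chromosome 4. Gm13152 had H3K27Ac in WT alone and Gm13154 in Spen KO alone, and Gm15821 had H3K4me3 in WT alone. Il3ra, an interleukin receptor chain, and Gm11127 had H3K4me3 alone in both genotypes. None of the Vmn1r, Mup, Serpin or Cyp promoters in wide domains carried either mark.

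The domains with most active peaks in WT were 5 of chromosome 4 and 1 of chromosome 2. On chromosome 4, chr4:145411401-145489800 with Gm13235 held 7 H3K4me3 and 4 H3K27Ac peaks in WT, beside 6 H3K4me3 and 5 H3K27Ac peaks in Spen KO, and chr4:146120401-146174200 with Zfp600 held 4 and 5 in WT, beside 3 and 4 in Spen KO. The others were chr4:146674001-146778800 with Gm13145, chr4:146544401-146608200 and chr4:145686201-145744200 with Gm13247. Each of these 5 held between 10 and 18 linker matches, and their Spen KO coverage ran from 60.3% to 89.8%. The domain at chr2:181634401-181669800 had no protein-coding gene, 3 H3K4me3 and 8 H3K27Ac peaks in WT, 5 and 7 in Spen KO, and was covered in full. Together the 53 domains rich in linker matches, with 2.79 of the 45.9 Mb, held 33 of the 87 WT H3K27Ac peaks and 29 of the 178 WT H3K4me3 peaks. Most of these were in the 10 domains on chromosome 4, which held 20 of each. Only 13 of the 53 had any WT H3K27Ac peak, and 11 any WT H3K4me3 peak. The H3K9me3 of the 53 domains was covered to 84.3% in Spen KO, and to 74.1% in the 10 of them on chromosome 4.

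Peaks found in a single genotype differed between the marks. Peaks without any overlap in the matching list of the opposite genotype were called Spen KO-only or WT-only. Of the 197 Spen KO H3K4me3 peaks in wide domains, 55 (27.9%, Wilson 95% interval 22.1 to 34.6) were Spen KO-only, whereas the share was 9.65% in other WT domains and 9.46% over the autosomes. Of the 178 WT H3K4me3 peaks, 34 (19.1%) were WT-only, against 17.2% and 23.6%. The Spen KO-only H3K4me3 peaks were spread over 47 domains and 16 chromosomes, with at most 9 on chromosome 7, and without the 5 chromosomes of low coverage the share was 31.7%, against 10.6% over the autosomes. Their scores ran from 5.56 to 24.1 with a median of 12.7. Of these peaks, 34 lay in domains with over 50% of words in at least 2 copies. By number, 52.7% of wide domains are of this kind, but their share of wide bases or of all H3K4me3 peaks was not counted. What peak strength or copied sequence adds to the Spen KO-only share was not tested. For H3K27Ac, the Spen KO-only peaks were 33 of 95 (34.7%, 25.9 to 44.7), against 43.1% in other WT domains and 28.6% over the autosomes, and 26 of 87 WT peaks (29.9%) were WT-only, against 36.3% and 40.1%. These shares come from 1 list per genotype, so their spread between libraries is unknown.

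The Spen KO-only peaks were also placed against the Spen KO H3K9me3 list. Of the 55 Spen KO-only H3K4me3 peaks, 47 (85.5%) had their midpoint at bases still covered by Spen KO H3K9me3, and so had 23 of the 33 Spen KO-only H3K27Ac peaks (69.7%). These shares were close to those of all Spen KO peaks in wide domains, 84.3% for H3K4me3 and 66.3% for H3K27Ac, and 87.9% of all wide bases were covered. For WT-only peaks the counts were 33 of 34 and 24 of 26. None of the 55 and 1 of the 33 lay within 1000 bp of a protein-coding TSS. The strongest Spen KO-only H3K27Ac peak, chr5:110338128-110339477, had a score above 88.4% of the Spen KO list and lay at covered bases of a domain of 36 kb covered to 50.0%. The second, chr3:22192430-22193176 (above 73.5%), lay at uncovered bases. The third, chr3:83673388-83675014 (above 72.5%), was 1 of 5 Spen KO-only peaks in chr3:83667001-83696600, where WT had 1 H3K27Ac peak, Spen KO 6, and each Spen KO Oct4 library 2 peaks with none in WT. The next 3, by score, lay in chr4:121852801-121897000, chr4:122119801-122158000 and chr6:3127801-3168000, all at covered bases.

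Oct4 was compared over its 4 libraries. WT replicate 1 had 15 of 1806 peaks in wide domains (0.831%), WT replicate 2 had 63 of 4111 (1.53%), Spen KO replicate 1 had 99 of 2617 (3.78%) and Spen KO replicate 2 had 38 of 3028 (1.25%). The genotypes overlapped, since 1 Spen KO library lay between the WT libraries. The mean was 1.18% ± 0.496 in WT and 2.52% ± 1.79 in Spen KO (SD, n = 2 each), a difference of 1.34 percentage points (exact two-sided permutation test, p = 0.667). The smallest p that 2 against 2 libraries can give is 0.333, so no difference could have passed. Of the 99 peaks of Spen KO replicate 1, 61 lay in the domain at the start of chromosome 9, where the other 3 libraries had 0. Without that domain Spen KO replicate 1 had 1.45%, and the difference was 0.172 percentage points (exact permutation test, p = 1). That domain was covered to 92.3% in Spen KO, had a WT score of 140 and holds 12 predicted protein-coding TSSs with no active mark. Of its words, 71.9% had at least 2 copies, beside a median of 51.7% and quartiles of 36.9% and 72.3% over all wide domains. Whether its predicted genes are genes, and whether copied sequence bears on its peaks, was not tested. Without the chromosome 9 domain, wide domains had 6.53 protein-coding TSSs per Mb.

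Oct4 in wide domains was seldom seen in every library. Across the 4 libraries, 67 wide domains had at least 1 Oct4 peak and 5 had one in each library. In both WT libraries there were 8 such domains of 52 with any WT peak, and in both Spen KO libraries 14 of 43. At chr2:181634401-181669800, the domain with most H3K27Ac, Oct4 had 0 and 7 peaks in the WT libraries and 3 and 1 in the Spen KO libraries. The Oct4 peaks in wide domains were weak for their own library, with a median fold enrichment at the 18.9th and 21.7th percentiles in WT and the 2.47th and 15.7th in Spen KO. Without the chromosome 9 domain the first Spen KO value was the 11.5th percentile.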

How the data were processed

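Peak lists from ChIP-seq of HATX mESCs (WT, and clone 2 of Spen KO) were used, with groups from the sample titles. According to their methods the authors mapped reads to mm9 with Bowtie2, kept uniquely mapped pairs, took out duplicates (Picard) and used MACS2 (q-value cutoff of 0.01) to call peaks, and filtered histone-mark peaks of libraries they call technical replicates by an irreproducible discovery rate below 0.05. The H3K4me3 and H3K27Ac lists carry that rate and the H3K9me3 lists do not. The deposited H3K9me3 lists give a score per domain of joined 200 bp windows, which fits 100 times a log2 ratio, and which caller made them and whether libraries were pooled is not given in the sources used here. The deposited histone peaks carry a score per library, averaged here, and the deposited Oct4 lists a fold enrichment ratio. Columns of p-values were not used.

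Wide domains were autosomal WT domains of at least 25000 bp. Coverage was shared bases, peaks counted by midpoint, genes taken from GENCODE vM1, and copies of 31-base words counted over mm9 (every 100th word for the autosomes), a measure added after seeing the data, like the interval on chromosome 7 and the class of 5 or more linker matches. Densities over the autosomes used bases other than N. Domains were named by width, Spen KO coverage, active peaks and Spen KO-only H3K27Ac. Members, lists and rules were chosen with earlier results of these data known. Interval functions were tested on simulated data. Python 3.11.15, numpy 2.4.6, pandas 2.3.3, scipy 1.17.1 and numba 0.67.0 were used. Oct4 shares were compared with an exact permutation test, and Wilson and Poisson intervals (95%) cover counting error only. Library p-values measure only the spread between these libraries, which may be technical.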

Additional observations from a re-analysis of the deposited data

How the results depend on the processing

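With a threshold of 20000 bp (2146 domains) or 40000 bp (336), protein-coding TSSs per Mb were 5.92 and 8.92, and at 40000 bp the bases covered were 89.6%. Joining WT domains at most 1000 bp apart gave 84.6% covered and 3.10% of domains under 50%. Joining Spen KO domains gave a median of 1 piece. Cutting the Spen KO list to the WT length by score gave 82.8% and 5.31%, and its upper 50% by score 74.0%, 13.2% and 1 piece. Counting all genes gave 16.99 TSSs per Mb, and gene bodies 10.8 per Mb. Domains in the upper 50% by score gave 5.97 TSSs and 1.51 WT H3K27Ac midpoints per Mb. TSSs of the zinc finger list were at 0.704%, and at 0.235% with 40000 bp, the upper 50% by score, or without chromosomes 4, 10, 12, 16 and 17. Leaving out those chromosomes, chosen after seeing the data, gave 90.4%, 0.815% and 1.36 WT H3K27Ac per Mb. The upper 50% of each list by score gave 1.89 and 1.74 H3K4me3 and 1.11 and 0.958 H3K27Ac midpoints per Mb in WT and Spen KO, by construction fewer. The Oct4 difference was −0.0495 in the upper 50% by fold enrichment, 1.34 with the replicate block (p = 1, exact paired permutation), and 0.0734 to 2.60 leaving out 1 library, the lowest without Spen KO replicate 1. Same-numbered libraries were treated as sharing only a number, since the labels do not say whether they share a culture. The correlation of their deviations was 0.02 over 2482 bins of 1 Mb, which cannot decide this. Of 88 alternative values, 25 were counted as moved (beyond their interval or 1.5 times), 1 as reversed and 62 as the same. The 62 include changes of more than 1.5 times, so they are not all stable. Examples are the Oct4 difference of 0.0734, beside 1.34 in the main setting, and the zinc finger share of 1.41% by gene bodies, beside 0.704%. The causes were not tested. Depth is unknown, so peaks just under a threshold cannot be told from absent ones.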

Other observations

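Some wide domains had very low WT scores. The 3 domains with Speer4 genes on chromosome 5 had scores from 5.31 to 63.3, the lowest of all 1149 among them, and 93.2% of their bases were covered in Spen KO. The wide domains with Slc transporter genes (11 domains) were covered to 89.5%, those with olfactory receptors (8) to 89.0%, with Nlrp genes (4) to 91.0% and with Mrgpr genes (3) to 90.7%. A Spen KO domain linked 2 or more wide WT domains in 17 cases of the 2725 that touched one.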
